A study of Mus musculus with 15 samples.

Results

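Kidneys of Hyp mice that received AAV-cFGF23 (cFGF23-Hyp) were compared with kidneys of wild-type mice (WT), a contrast for which the authors deposited no table of their own. It uses 10 of the 15 libraries of the series, chosen by their titles, cFGF23-Hyp_1 to cFGF23-Hyp_5 and WT_1 to WT_5, each from the whole kidney of 1 mouse. The cFGF23-Hyp mice carried the genotype label Phex_KO and were injected intravenously at 4 weeks of age with an adeno-associated virus (AAV) for cFGF23, at 1e12 vector genomes per mouse. The 5 PBS-treated Hyp mice, also Phex_KO, are set beside them where their values help to read the contrast, and the WT mice received PBS. Mice of every group were 4 months old, and the injected mice were killed 3 months after injection. The labels name no promoter for the vector, and the design text calls the mutant line Hyp-Duk. No group received an empty vector, and no WT mouse received the virus, so loss of Phex, the vector and cFGF23 cannot be told apart in this contrast.

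FGF23 is a hormone from bone that acts on the kidney through FGF receptors joined to the co-receptor Klotho. There it reduces the sodium-phosphate cotransporters of the proximal tubule and lowers active vitamin D by restraining Cyp27b1 and raising Cyp24a1. Phex is an endopeptidase of bone cells, and mice without it have high FGF23 and lose phosphate into the urine. cFGF23 is the carboxy-terminal part of the hormone, which can compete with intact FGF23 for the receptor complex. Type I interferons act on most cells through a receptor at the cell surface and switch on antiviral genes that carry a short DNA element in their promoters.

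Total counts ran from 13083190 in cFGF23-Hyp_3 to 21829906 in WT_4, and 3 libraries stood apart. WT_5 has the title of a WT mouse, but its genotype label is Phex_KO and its cell type label is Hyp. In 38 of the 40 tested members of a list of type I interferon genes WT_5 lay above all of WT_1 to WT_4, and cFGF23-Hyp_5 lay below all of cFGF23-Hyp_1 to cFGF23-Hyp_4 in 38 of the 40. Over all 15900 genes tested, the same placements held for 22.2% and 21.8% of genes. cFGF23-Hyp_3 had the fewest detected genes (20444), the lowest mitochondrial share of counts (6.635%) and a first principal component of 76.08, against -17.1 to 11.93 in the other 14 libraries. Phex had 0 counts in all 5 cFGF23-Hyp libraries, at most 3 in Hyp and at most 1 in WT, so its kidney level could not check any genotype label. Values are given without WT_5 and cFGF23-Hyp_5 (the 13-library fit) and, for most of the genes and lists described, with all 15 libraries, where no gene of this contrast had an adjusted p below 0.6677. An adjusted p with no fit named is from the 13-library fit. These libraries were left out with their values known, so the smaller errors of the 13-library fit follow in part from that choice.

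Interferon-induced genes are described first among the results, since their list held the most called genes, and their promoters show a shared element. The element searched was GAAANNGAAA, the core to which interferon-activated factors bind, on both strands, with overlapping matches counted. RefSeq promoter windows of the mouse build GRCm38.p6 ran from 250 bases before to 50 bases after a gene's start. The element occurred in 16 of the 30 list genes with a window (53.3%), against 3.78% of the 11403 tested genes with a window. Among list genes called higher in the 13-library fit, it occurred in 12 of 26 with a window (46.2%). The list was made of interferon-induced genes, so these shares are no test of the calls. The 250 bases before the start of Ifit1, Isg15 and Oas1a, 3 of the genes described below, are printed 5′ to 3′ on the gene's strand, with matches in capitals. The Ifit1 stretch is chr19:34640639-34640888 on the plus strand, and its 2 matches are on the opposite strand to the gene. The Isg15 stretch is chr4:156200819-156201068 on the minus strand, with 3 overlapping matches. The Oas1a stretch is chr5:120907526-120907775 on the minus strand, with 2 overlapping matches. The windows of Irf7, Oasl1, Oasl2, Lgals3bp and Ifi44l, also described below, held no match. That says only that these letters are not in those windows.
Ifit1: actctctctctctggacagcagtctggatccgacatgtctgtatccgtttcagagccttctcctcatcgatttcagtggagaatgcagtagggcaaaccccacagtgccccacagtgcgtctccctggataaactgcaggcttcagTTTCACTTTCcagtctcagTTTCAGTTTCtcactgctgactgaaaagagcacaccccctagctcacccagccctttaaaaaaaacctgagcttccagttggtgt
Isg15: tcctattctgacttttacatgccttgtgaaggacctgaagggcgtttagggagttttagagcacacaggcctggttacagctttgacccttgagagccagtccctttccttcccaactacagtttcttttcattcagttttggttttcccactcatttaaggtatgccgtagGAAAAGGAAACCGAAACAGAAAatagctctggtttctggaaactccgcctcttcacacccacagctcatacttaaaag
Oas1a: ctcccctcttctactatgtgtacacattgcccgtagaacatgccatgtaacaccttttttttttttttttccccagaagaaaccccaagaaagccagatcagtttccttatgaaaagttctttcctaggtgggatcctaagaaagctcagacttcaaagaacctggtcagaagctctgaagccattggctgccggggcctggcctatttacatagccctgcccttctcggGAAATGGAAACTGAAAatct

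Across all genes, whether cFGF23-treated Hyp kidneys differed from WT kidneys depended on the libraries admitted. With all 15 libraries, edgeR's quasi-likelihood test with Benjamini-Hochberg adjustment called 0 of 15789 genes (0%), the smallest adjusted p being 0.6677. At an unadjusted p below 0.05 there were 905 genes (5.73%). DESeq2 called 6 genes and limma-voom 0. Without WT_5 and cFGF23-Hyp_5, the same test called 177 of 15900 genes (1.11%), of which 134 were higher (0.843%) and 43 lower (0.27%) in cFGF23-Hyp. Of the 177 called genes, 50 belonged to the type I interferon list, a list of interferon-gamma-induced GTPases and relatives, or a list of class I antigen presentation. In the fits of 15 and 13 libraries, cFGF23-Hyp against Hyp gave 0 (0%) and 67 (0.421%) called genes, and Hyp against WT 54 (0.342%) and 228 (1.43%). Leaving out cFGF23-Hyp_3 as well gave 583 called genes, 291 higher and 292 lower, which included all 177. Leaving out WT_2, WT_4, cFGF23-Hyp_2 or WT_1 instead gave 83, 93, 106 or 114 called genes, a fit of cFGF23-Hyp and WT alone 71, and DESeq2 355.

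**Figure D1:**
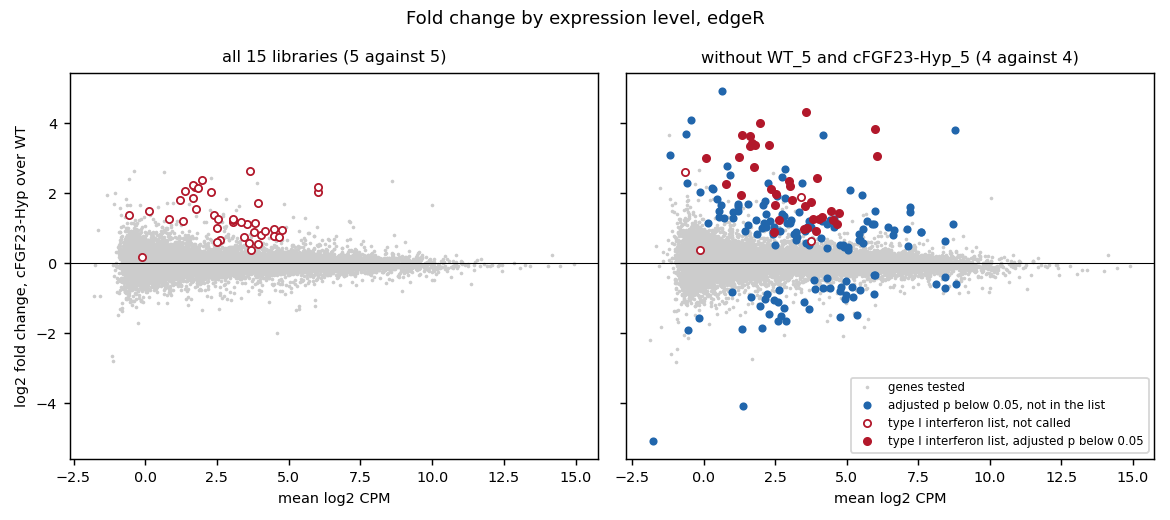
Log2 fold change of cFGF23-Hyp over WT (vertical) against mean log2 CPM (horizontal) for each gene tested with all 15 libraries (left) and without WT_5 and cFGF23-Hyp_5 (right). The 40 tested type I interferon genes all lie above 0 in both panels, none passes the threshold on the left and 36 do on the right.

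Both left-out libraries were on the far side of their own group for most of the called genes. WT_5 lay above all of WT_1 to WT_4 in 132 of the 134 genes called higher (98.5%) and below all of them in 38 of the 43 genes called lower (88.4%). cFGF23-Hyp_5 lay below all of cFGF23-Hyp_1 to cFGF23-Hyp_4 in 123 of the genes called higher (91.8%) and above all of them in 39 of the genes called lower (90.7%). Over all genes tested, WT_5 was above the other WT libraries in 22.2% and below them in 22.2%, and cFGF23-Hyp_5 was below its group in 21.8% and above it in 19.8%. The genes were called on the other 8 libraries, and picking genes for a wide gap between 8 libraries by itself moves further libraries inward. Without overlap of 5 and 5 libraries, 39 genes were higher (0.247%) and 38 lower (0.241%) in cFGF23-Hyp, and of 4 and 4 libraries 451 were higher (2.84%) and 326 lower (2.05%).

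Type I interferon genes were higher in the kidneys of 4 of the 5 cFGF23-Hyp mice than in those of 4 of the 5 WT mice, and low in all Hyp mice. Without WT_5 and cFGF23-Hyp_5, 36 of the 40 tested members rose and 0 fell, against 0.843% higher and 0.27% lower over all genes tested. Their median log2 fold change was 1.963, against 0.021 over all genes tested. With all 15 libraries, the median was 1.223, all 40 members were positive and 0 were called, where all genes tested gave a median of 0.015. The members not called in the 13-library fit were Mx1 (2.62, adjusted p = 0.1237), Ifi27l2a (1.89, adjusted p = 0.2919), Rsad2 (0.62, adjusted p = 0.3651) and Ifit1bl1. The median of the same list in cFGF23-Hyp against Hyp was 1.723 in that fit and in Hyp against WT 0.149, comparisons that share libraries with this one.

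Irf7, the transcription factor that amplifies type I interferon production, had 168, 126, 84.3, 16.5 and 5.72 CPM, counts scaled to a fixed library total, in cFGF23-Hyp_1 to cFGF23-Hyp_5, 3.8 to 7.02 CPM in Hyp, and 5.53, 3.66, 5.8, 4.81 and 44.4 CPM in WT_1 to WT_5. The first 4 cFGF23-Hyp libraries lay above the first 4 WT libraries, with cFGF23-Hyp_4 much the lowest of them, while WT_5 lay between cFGF23-Hyp_3 and cFGF23-Hyp_4. The log2 fold change was 4.32 ± 0.52 (SE) without WT_5 and cFGF23-Hyp_5 (edgeR adjusted p = 0.00061) and 2.63 ± 0.78 with all libraries (adjusted p = 0.6677). Ifit1, which binds viral RNA that lacks a host cap, had 24.1, 25.5, 13.6, 6.91 and 0.927 CPM in cFGF23-Hyp_1 to cFGF23-Hyp_5 and 1.29, 1.61, 2.09, 1.41 and 8.67 CPM in WT_1 to WT_5. It rose by 3.44 ± 0.41 on the log2 scale in the 13-library fit (edgeR adjusted p = 0.00061). Isg15, a ubiquitin-like protein that is joined to other proteins, had 16.7, 11.7, 9.52, 2.35 and 0.618 CPM in cFGF23-Hyp and 1.01, 0.867, 1.83, 1.12 and 6.77 CPM in WT, in replicate order. These genes shared their order, with cFGF23-Hyp_1 to cFGF23-Hyp_3 highest, cFGF23-Hyp_4 far lower and cFGF23-Hyp_5 within or below the range of the first 4 WT libraries.

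Oas1a and Oasl1, of the oligoadenylate synthetase family that senses double-stranded RNA, rose by 3.63 ± 0.42 and 4.01 ± 0.51 on the log2 scale in the 13-library fit (edgeR adjusted p = 0.00058 and 0.00091). Oas1a had 26.2, 23.4, 22.2, 5.05 and 2.24 CPM in cFGF23-Hyp, 1.05 to 1.64 CPM in Hyp, and 1.65, 1.36, 2.25, 0.923 and 11.3 CPM in WT. The Oas1 genes are near-identical copies, so reads may be split between them. Mx2, an antiviral GTPase, rose by 3.67 ± 0.47 (adjusted p = 0.00091), with 25.7, 17, 12.7, 3.94 and 1.24 CPM in cFGF23-Hyp and 1.58, 1.49, 0.889, 0.777 and 9.81 CPM in WT. Lgals3bp, a secreted glycoprotein that binds galectins, had 511, 571, 317, 100 and 25.1 CPM in cFGF23-Hyp, 31.7 to 42.6 CPM in Hyp, and 25.4, 20.5, 32.8, 25.1 and 232 CPM in WT. Its log2 fold change was 3.85 ± 0.40 without WT_5 and cFGF23-Hyp_5 (adjusted p = 0.00029) and 2.18 ± 0.74 with them (adjusted p = 0.7236). Ifi44l and Oasl2 rose by 1.97 ± 0.21 and 2.35 ± 0.25 (adjusted p = 0.00034 and 0.00032). With all 15 libraries, the log2 fold changes were 2.23 ± 0.66 for Ifit1, 1.81 ± 0.65 for Isg15, 2.17 ± 0.66 for Oas1a, 2.39 ± 0.76 for Oasl1, 2.06 ± 0.71 for Mx2, 1.27 ± 0.38 for Ifi44l and 1.27 ± 0.48 for Oasl2, none called. Each of the 9 interferon genes named here stayed called in all 13 fits that left out 1 further library, and in limma-voom Isg15 and Oasl1 had adjusted p = 0.0574 and 0.0656.

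**Figure D2:**
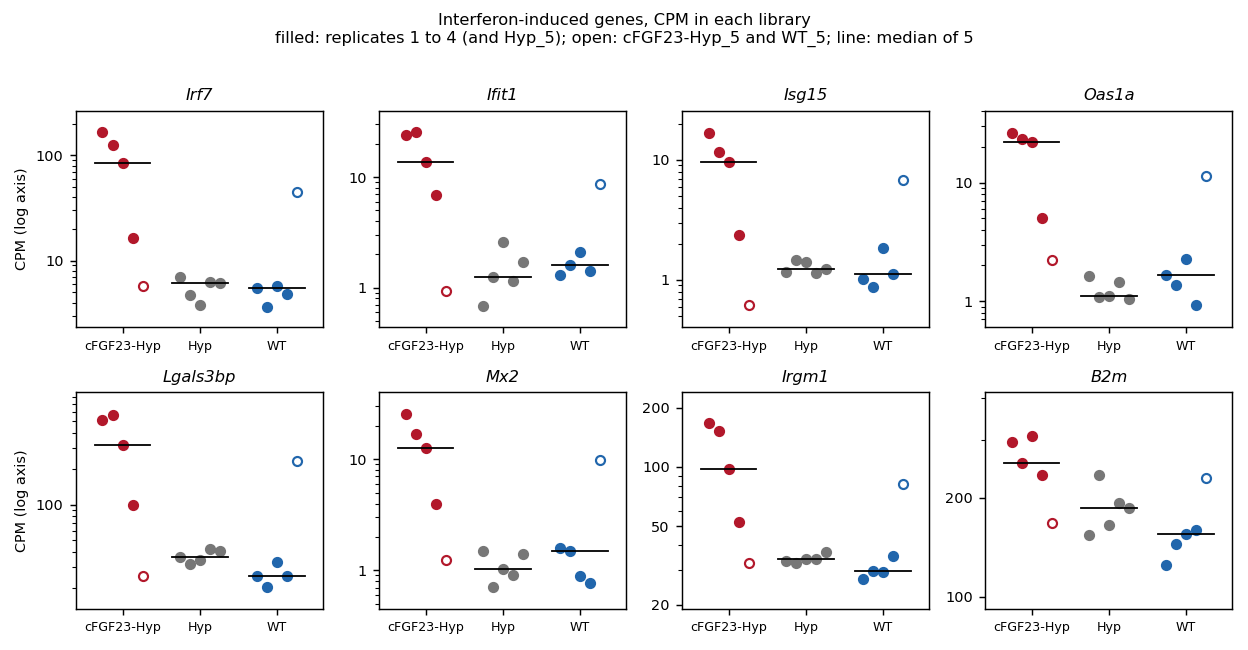
CPM on a log axis in each of 15 libraries for 8 interferon-induced genes, with groups from left to right cFGF23-Hyp, Hyp and WT, open circles for cFGF23-Hyp_5 and WT_5, and a line at the median of 5. For Irf7 the filled cFGF23-Hyp circles run from 16.5 to 168 CPM and the filled WT circles from 3.66 to 5.8, while the open circles are at 5.72 in cFGF23-Hyp and 44.4 in WT.

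Some genes that interferon-gamma also induces were called. Of 19 tested GTPases and relatives, 6 rose (0.843% over all genes) and 0 fell in the 13-library fit, with a median log2 fold change of 1.244. That count of 6 became 2 without WT_2 and 11 without cFGF23-Hyp_3. In the 13-library fit 17 of the 19 were positive, against 54.9% over all genes tested. At an unadjusted p below 0.05 edgeR had 17, against 1548 of all 15900 genes. DESeq2 called 12 higher and limma-voom 3. With all libraries the median was 0.831, with 17 positive and 0 called by edgeR. Irgm1, an immunity-related GTPase of cell-autonomous defence, had 168, 152, 98, 52.3 and 32.4 CPM in cFGF23-Hyp, 32.4 to 37 CPM in Hyp, and 27.1, 29.5, 29.4, 35.1 and 81.9 CPM in WT, and rose by 1.96 ± 0.26 (edgeR adjusted p = 0.0011). The guanylate-binding proteins Gbp3 and Gbp6 rose by 2.70 ± 0.27 and 2.52 ± 0.44 (adjusted p = 0.00029 and 0.0095), and the call of Gbp6 was lost without WT_2 (adjusted p = 0.0502). With all libraries, the values were 1.31 ± 0.38 for Irgm1, 1.84 ± 0.46 for Gbp3 and 1.72 ± 0.48 for Gbp6. Irf1, a factor induced directly by interferon-gamma, had a log2 fold change of 0.12 (adjusted p = 0.89), and Cxcl10, a chemokine for T cells, one of 0.09 ± 0.30 (adjusted p = 0.969). Cxcl10 reached at most 1.41 CPM in cFGF23-Hyp and at most 1.68 CPM in WT. The part of interferon-gamma in these values was not tested. Receptors of type I interferon, Ifnar1 and Ifnar2, had log2 fold changes of 0.03 ± 0.08 and 0.22 ± 0.12 (adjusted p = 0.957 and 0.5908), and were looked up after the interferon values were seen.

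Class I antigen presentation, by which cells display peptides to T cells, had 17 tested members. Of these 8 rose and 0 fell in the 13-library fit, with a median of 0.722 and all 17 positive, against 0.843% called higher and 54.9% positive over all genes tested. The count was 5 without WT_2 or without WT_4. H2-T23, a non-classical class I molecule, had 122, 115, 129, 62.3 and 43.3 CPM in cFGF23-Hyp, 39.4 to 47.1 CPM in Hyp, and 49.9, 46.5, 49.5, 49.1 and 80.1 CPM in WT, and rose by 1.13 ± 0.17 (edgeR adjusted p = 0.0024). Tap1, which carries peptides into the endoplasmic reticulum, rose by 1.25 ± 0.14 (adjusted p = 0.00042), with 15, 13.4, 12.9, 9.54 and 6.41 CPM in cFGF23-Hyp, 7.36 to 9.16 CPM in Hyp and 5.68, 5.08, 5.07, 5.54 and 12.1 CPM in WT. B2m, the light chain of class I molecules, had 295, 254, 307, 235 and 168 CPM in cFGF23-Hyp, 154 to 235 CPM in Hyp, and 125, 145, 155, 160 and 230 CPM in WT, and rose by 0.90 ± 0.13 (adjusted p = 0.0024). The first 4 libraries of cFGF23-Hyp and of WT did not overlap for any of these 3 genes (2.84% of all genes tested were higher in this way). With all libraries, the log2 fold changes were 0.78 ± 0.24 for H2-T23, 0.77 ± 0.25 for Tap1 and 0.63 ± 0.17 for B2m. The class I genes share sequence, and reads may be divided between them. Of 8 tested class II genes 0 passed, with a median of 0.296.

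Of 22 tested complement genes 2 rose and 0 fell in the 13-library fit, with a median of 0.377 and 18 of 22 positive, against 0.843% called higher and 54.9% positive over all genes tested. With all libraries the median was 0.185, with 14 positive and 0 called. In the 13-library fit, the median of these genes was 0.388 in Hyp against WT and -0.008 in cFGF23-Hyp against Hyp. C2, a protease of the classical pathway, had 13.6, 18.3, 17.3, 17.1 and 9.43 CPM in cFGF23-Hyp, 11.3 to 13.5 CPM in Hyp, and 7.83, 8.05, 8.57, 7.63 and 14.4 CPM in WT, and rose by 1.05 ± 0.11 (edgeR adjusted p = 0.00032). C4b had 98.4, 106, 113, 34.6 and 34.8 CPM in cFGF23-Hyp and 37.9, 33.2, 36, 45.2 and 60.5 CPM in WT, so cFGF23-Hyp_4 lay among the WT libraries. Its call (1.21 ± 0.26, adjusted p = 0.0366) held in 2 of the 13 fits that left out 1 further library, those without cFGF23-Hyp_3 and without cFGF23-Hyp_4. With all libraries, C2 was at 0.71 ± 0.19 and C4b at 0.86 ± 0.29. C3, the central component, had a log2 fold change of 0.44 ± 0.42 (adjusted p = 0.8252).

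Markers of immune cells were set beside these genes, because in whole kidney a change in the number of cells of a type and a change in RNA per cell cannot be told apart. Of 20 tested macrophage markers 0 passed edgeR's test in either fit. In the 13-library fit 8 had an unadjusted p below 0.05, and DESeq2 called 1, the Fc receptor Fcgr1, higher. The median was 0.367 without WT_5 and cFGF23-Hyp_5, with 19 of 20 positive, and 0.329 with them, with all 20 positive. Over all genes tested, the median was 0.021 and 54.9% were positive in the 13-library fit. The macrophage markers summed to 213 to 252 CPM in cFGF23-Hyp_1 to cFGF23-Hyp_4 and 188 to 202 CPM in WT_1 to WT_4. Over all 5 libraries the sum was 168 to 252 CPM in cFGF23-Hyp and 188 to 205 CPM in WT. The macrophage sum thus did not overlap between the first 4 libraries of each group, and did overlap over 5. Of all single genes tested, 2.84% were higher without overlap of 4 and 4 libraries. In PBS-treated Hyp, where the interferon genes were low, the macrophage sum was 222 to 245 CPM, within the range of cFGF23-Hyp_1 to cFGF23-Hyp_4. In the 13-library fit, the median of the macrophage markers was 0.384 in Hyp against WT and -0.043 in cFGF23-Hyp against Hyp. T and NK cell markers summed to 7.98 to 9.77 CPM in cFGF23-Hyp_1 to cFGF23-Hyp_4 and 6.07 to 9.23 CPM in WT_1 to WT_4, and of their 3 tested members 0 passed. B and plasma cell markers summed to 246 to 422 CPM in cFGF23-Hyp and 209 to 355 CPM in WT, and 0 of 12 passed. No matched marker of these lists had 0 counts in every library. The part of these cells in the interferon result was not tested.

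Several named genes, grouped here after their values were seen, lay in cFGF23-Hyp_1 to cFGF23-Hyp_4 nearer to PBS-treated Hyp than to WT_1 to WT_4, and no count of such genes was made. Ttr, the carrier of thyroid hormone and retinol that liver and choroid plexus secrete, had 695, 822, 1260, 870 and 55.5 CPM in cFGF23-Hyp, 917 to 1850 CPM in Hyp, and 44.3, 75, 61.5, 79.4 and 463 CPM in WT. It rose by 3.81 ± 0.27 on the log2 scale in the 13-library fit (edgeR adjusted p = 6.12e-06), and with all libraries the value was 2.36 ± 0.68 (adjusted p = 0.6677). In cFGF23-Hyp against Hyp its log2 fold change was -0.41 (adjusted p = 0.5975). Of 10 tested hepatocyte markers Ttr was the only one called in the 13-library fit (0.843% called higher over all genes tested). Albumin (Alb) had 3.13 to 7.26 CPM in cFGF23-Hyp, 5.79 to 39 CPM in Hyp and 3.47 to 9.31 CPM in WT.

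Synpr, a synaptic vesicle membrane protein, had the largest fall of the named genes in the 13-library fit. It had 1.23, 2.94, 1.94, 0.276 and 42 CPM in cFGF23-Hyp, 0.303 to 1.29 CPM in Hyp, and 40.6, 21.8, 23.4, 24.2 and 0.542 CPM in WT. The first 4 libraries of each group were far apart, cFGF23-Hyp_5 lay above all 5 WT libraries and WT_5 among cFGF23-Hyp_1 to cFGF23-Hyp_4. Its log2 fold change was -4.08 ± 0.45 without these libraries (edgeR adjusted p = 0.00039) and -1.21 ± 0.94 with them (adjusted p = 0.9962), where Irs2, described below, was lower still. Snx31, a sorting nexin known from bladder epithelium, had 18.8, 23.4, 30.3, 11.7 and 64.8 CPM in cFGF23-Hyp, 14.3 to 21.1 CPM in Hyp, and 70.9, 60.7, 53.7, 60.3 and 30.2 CPM in WT, and fell by 1.55 ± 0.21 (adjusted p = 0.0015). Hapln1, a link protein of the hyaluronan matrix, fell by 1.87 ± 0.31 (adjusted p = 0.0069), and Msantd3 by 1.5 ± 0.20 (adjusted p = 0.0011). With all libraries, Snx31 was at -0.89 ± 0.33, Hapln1 at -0.80 ± 0.50, Msantd3 at -0.95 ± 0.30 and Anks1b at -0.93 ± 0.46. Anks1b fell by 1.84 ± 0.35 (adjusted p = 0.017), a call that was lost without WT_1 or WT_2. Smcp and Gm11100 fell by 1.46 ± 0.30 and 1.65 ± 0.33 (adjusted p = 0.0301 and 0.023) and held in 6 and 8 of 13 fits that left out 1 further library. With all libraries they were at -0.96 ± 0.34 and -1.06 ± 0.38. Smcp was lost without any of WT_1 to WT_4, cFGF23-Hyp_1, cFGF23-Hyp_2 or cFGF23-Hyp_4, and Gm11100 without WT_1, WT_2, WT_4, cFGF23-Hyp_2 or cFGF23-Hyp_4.

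Ces1g, a carboxylesterase that hydrolyses esters and lipids, had the smallest adjusted p of the named genes and took a level between the other groups. It had 18.2, 19.7, 22.9, 13.3 and 2.01 CPM in cFGF23-Hyp, 127, 116, 114, 117 and 132 CPM in Hyp, and 2.01, 1.36, 1.52, 1.07 and 9.59 CPM in WT. Every Hyp library lay above every cFGF23-Hyp library, and the first 4 cFGF23-Hyp libraries lay above all 5 WT libraries. The shares of all genes placed in these ways were not counted. In the 13-library fit, Ces1g was 3.65 ± 0.19 higher than in WT on the log2 scale (edgeR adjusted p = 1.43e-07), and in cFGF23-Hyp against Hyp its log2 fold change was -2.72 (adjusted p = 2.99e-07). With all libraries it was 2.28 ± 0.55 higher than in WT (adjusted p = 0.6677), and its log2 fold change against Hyp was -2.99 (adjusted p = 0.1442). Nat8f2, of a family of N-acetyltransferases, was likewise between, with 63.8, 66.8, 71.9, 69.7 and 33.5 CPM in cFGF23-Hyp, 86.2 to 108 CPM in Hyp, and 27.7, 34.5, 29.9, 32.8 and 53.9 CPM in WT. It rose by 1.12 ± 0.09 against WT (adjusted p = 3.01e-05), and against Hyp its log2 fold change was -0.53 (adjusted p = 0.0096). With all libraries Nat8f2 was 0.77 ± 0.19 higher than in WT (adjusted p = 0.6677), and its log2 fold change against Hyp was -0.68 (adjusted p = 0.2386). Both genes stayed called against WT in all 13 fits that left out 1 further library.

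**Figure D3:**
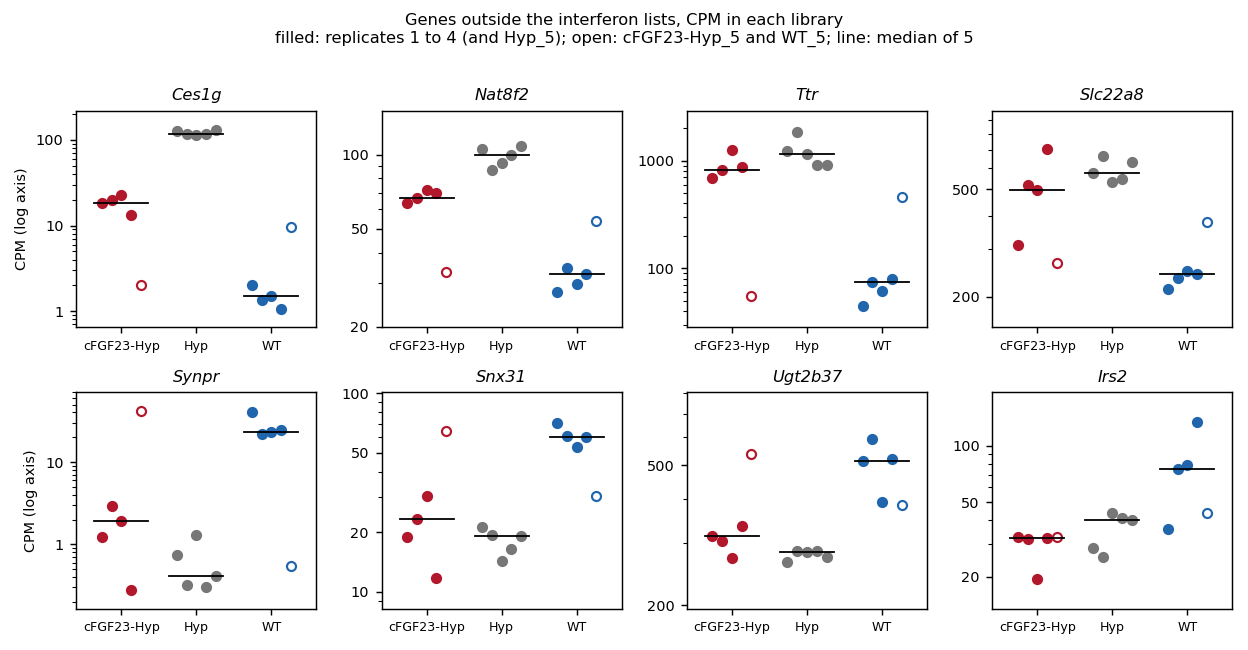
CPM on a log axis in each of 15 libraries for 8 genes outside the interferon lists, with groups from left to right cFGF23-Hyp, Hyp and WT, open circles for cFGF23-Hyp_5 and WT_5, and a line at the median of 5. Ces1g is at 13.3 to 22.9 CPM in the filled cFGF23-Hyp circles, 114 to 132 in Hyp and 1.07 to 2.01 in the filled WT circles, and the open circles of Synpr, are at 42 CPM in cFGF23-Hyp and 0.542 in WT.

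Among transporters and enzymes of the proximal tubule, a few rose while the tubule's markers as a list did not. Of 27 tested proximal tubule markers 3 rose and 0 fell in the 13-library fit, against 0.843% higher and 0.27% lower over all genes tested. Their median was -0.037, and 12 were positive, against 54.9% over all genes. Slc22a8, which takes organic anions from blood into the tubule cell, had 310, 518, 497, 707 and 267 CPM in cFGF23-Hyp, 532 to 662 CPM in Hyp, and 213, 235, 249, 244 and 378 CPM in WT, and rose by 1.11 ± 0.18 (edgeR adjusted p = 0.0056). Slc13a1, the sodium-sulfate cotransporter, had 303, 417, 348, 435 and 297 CPM in cFGF23-Hyp, 354 to 468 CPM in Hyp, and 235, 252, 237, 241 and 339 CPM in WT, and rose by 0.64 ± 0.12 (adjusted p = 0.0133). For both, WT_5 lay among the cFGF23-Hyp libraries, and in a fit of cFGF23-Hyp and WT alone their adjusted p was 0.0574 and 0.0671. Slc7a7, an exporter of cationic amino acids, rose by 0.98 ± 0.22 (adjusted p = 0.0426), which held in 4 of 13 fits that left out 1 further library, those without WT_3, Hyp_5, cFGF23-Hyp_1 or cFGF23-Hyp_3. Ugt2b37, a glucuronosyltransferase, had 314, 305, 273, 335 and 537 CPM in cFGF23-Hyp, 265 to 286 CPM in Hyp, and 514, 594, 392, 520 and 386 CPM in WT, and fell by 0.72 ± 0.11 (adjusted p = 0.0034; 0.057 in the fit of 2 groups). With all libraries, the log2 fold changes were 0.80 ± 0.22 for Slc22a8, 0.47 ± 0.13 for Slc13a1, 0.68 ± 0.23 for Slc7a7 and -0.45 ± 0.16 for Ugt2b37. The oxysterol and steroid hydroxylase Cyp7b1 rose by 0.89 ± 0.20 (adjusted p = 0.0484) and the carboxylesterase Ces2h fell by 0.97 ± 0.19 (adjusted p = 0.0223), and these held in 3 and 8 of the 13 fits. Cyp7b1 held without Hyp_5, cFGF23-Hyp_2 or cFGF23-Hyp_3, and Ces2h was lost without WT_1, WT_2, cFGF23-Hyp_1, cFGF23-Hyp_2 or cFGF23-Hyp_4. They were at 0.56 ± 0.26 and -0.69 ± 0.21 with all libraries.

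Irs2, the docking protein that passes the insulin signal on, was the one named gene whose groups did not overlap over all 5 and 5 libraries. Over all genes tested, 38 were lower without such overlap (0.241%). Irs2 had 32.6, 31.9, 19.4, 32.2 and 32.7 CPM in cFGF23-Hyp, 25.4 to 43.8 CPM in Hyp, and 36.1, 75.4, 78.5, 134 and 43.6 CPM in WT. The cFGF23-Hyp libraries lay close together except cFGF23-Hyp_3, and the WT libraries were widely spread. Its log2 fold change was -1.31 ± 0.29 with all 15 libraries (edgeR adjusted p = 0.6677) and -1.48 ± 0.31 without WT_5 and cFGF23-Hyp_5 (adjusted p = 0.0327), a call that held in 6 of 13 fits that left out 1 further library, those without WT_1, Hyp_1 to Hyp_4 or cFGF23-Hyp_3. Arntl, the activator of the circadian clock, had 18.5, 16, 21.1, 24.6 and 28.6 CPM in cFGF23-Hyp and 27.6, 44.6, 33.1, 33.8 and 25 CPM in WT, and fell by 0.80 ± 0.17 in the 13-library fit (adjusted p = 0.0361), which held in 5 of the 13, those without WT_1, Hyp_3, Hyp_4, cFGF23-Hyp_3 or cFGF23-Hyp_4. With all libraries Arntl was at -0.60 ± 0.17. It was the only called gene of 19 tested clock genes (0.27% called lower over all genes tested), whose median was 0.135. The labels give no hour of death.

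Genes of phosphate and vitamin D handling did not pass edgeR's test in either fit. Of 12 tested phosphate genes edgeR called 0 (3 at an unadjusted p below 0.05) and DESeq2 1, the scaffold protein Pdzk1, lower, in the 13-library fit, with a median of -0.066 without WT_5 and cFGF23-Hyp_5. Slc34a1, the main sodium-phosphate cotransporter of the proximal tubule, had 3960, 4620, 4770, 3780 and 4630 CPM in cFGF23-Hyp, 3280 to 3830 CPM in Hyp, and 4970, 4580, 4530, 4510 and 4510 CPM in WT. The cFGF23-Hyp and WT libraries overlapped, and of the cFGF23-Hyp libraries only cFGF23-Hyp_4 reached into the range of Hyp. The log2 fold change against WT was -0.12 ± 0.10 in the 13-library fit (edgeR adjusted p = 0.7826) and -0.09 ± 0.08 with all libraries (adjusted p = 0.9986). In that 13-library fit, Slc34a1 in Hyp against WT was -0.40 (adjusted p = 0.0463) and in cFGF23-Hyp against Hyp 0.28 (adjusted p = 0.3973). With all libraries, Hyp against WT was -0.39 (adjusted p = 0.0591). Slc34a3, the second renal cotransporter of its family, had 43.1 to 65 CPM in cFGF23-Hyp and 27 to 56.2 CPM in WT, with a log2 fold change of 0.29 ± 0.19 (adjusted p = 0.697).

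Of 10 tested vitamin D genes edgeR called 0 in either fit, with 1 at an unadjusted p below 0.05 in the 13-library fit. Cyp27b1, which makes active vitamin D, had 6.08, 13.6, 21, 8.43 and 3.55 CPM in cFGF23-Hyp, 3.46 to 14.2 CPM in Hyp, and 3.09, 3.9, 5.96, 2.96 and 9.16 CPM in WT. The first 4 libraries of each group did not overlap (2.84% of all genes tested were higher in this way). The log2 fold change of 1.61 ± 0.42 had an adjusted p of 0.1053 (edgeR, 13 libraries), against 1.06 ± 0.45 (adjusted p = 0.8393) with all libraries. DESeq2 called Cyp27b1 in the 13-library fit (1.62, adjusted p = 0.00513). Cyp24a1, which degrades vitamin D, varied widely within groups, with 180, 154, 84.3, 42.5 and 149 CPM in cFGF23-Hyp, 41 to 373 CPM in Hyp, and 17, 66.7, 39, 108 and 121 CPM in WT. Its log2 fold change against WT was 0.99 ± 0.66 (adjusted p = 0.7006), and 0.79 ± 0.58 with all libraries. The vitamin D receptor Vdr had 217 to 347 CPM in cFGF23-Hyp and 268 to 331 CPM in WT, with a log2 fold change of -0.13 ± 0.13 (adjusted p = 0.8444). A p that misses the threshold does not show that these levels were alike.

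Of 11 tested genes of FGF receptors and Klotho 0 passed, with a median of -0.017. Kl, which encodes Klotho, had 806, 881, 636, 700 and 971 CPM in cFGF23-Hyp, 608 to 650 CPM in Hyp, and 981, 956, 789, 834 and 826 CPM in WT, with a log2 fold change of -0.24 ± 0.11 against WT (edgeR adjusted p = 0.4748, 13 libraries). With all libraries Kl was at -0.14 ± 0.10. In Hyp against WT, Kl was -0.51 (adjusted p = 0.0223) in the 13-library fit and -0.49 (adjusted p = 0.0549) with all libraries. Fgfr4 had 82.6 to 89.6 CPM in cFGF23-Hyp, 77.9 to 83.5 CPM in Hyp and 87.4 to 106 CPM in WT, with a log2 fold change of -0.19 ± 0.07 (adjusted p = 0.3759). Fgfr1, the main receptor partner of Klotho for FGF23, was at 0.01 ± 0.11 (adjusted p = 0.991).

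Target genes of FGF and ERK signalling, which FGF23 can switch on in tubule cells, were mostly positive. In the 13-library fit 1 of 20 was called higher (0.843% over all genes tested). The median was 0.265, and 19 of 20 were positive, against 54.9% over all genes tested. With all libraries the median was 0.132, with 15 of 20 positive and 0 called by edgeR (1, Etv1, by DESeq2). Etv1, an ETS factor of this pathway, was the called one, at 0.65 ± 0.14 (edgeR adjusted p = 0.0401), a call that held in 2 of 13 fits that left out 1 further library, those without cFGF23-Hyp_3 and without cFGF23-Hyp_4. It had 50.9, 63.8, 57.6, 36.8 and 51.5 CPM in cFGF23-Hyp, 47.4 to 53.1 CPM in Hyp, and 35.4, 33.3, 37.3, 27.3 and 41.1 CPM in WT. With all libraries Etv1 was at 0.58 ± 0.13 (adjusted p = 0.6677). Only cFGF23-Hyp_4 lay below the highest WT libraries. Etv5 had 28, 33.2, 20.1, 29.2 and 19.7 CPM in cFGF23-Hyp, 28 to 41.7 CPM in Hyp, and 17.5, 24.8, 17.9, 16.1 and 23.6 CPM in WT, with a log2 fold change of 0.54 ± 0.17 (adjusted p = 0.2153, and 0.0301 without cFGF23-Hyp_3). Etv4 was near the WT level, with 0.674 to 1.5 CPM in cFGF23-Hyp, 2.28 to 4.05 CPM in Hyp and 0.575 to 1.36 CPM in WT, and a log2 fold change against WT of 0.07 ± 0.34 (adjusted p = 0.9812). Dusp6, which switches ERK off, and Spry4, an inhibitor of the same pathway, were at 0.15 ± 0.20 and 0.25 ± 0.16 (adjusted p = 0.9019 and 0.6795). Egr1 spread over 7.79 to 80.2 CPM in cFGF23-Hyp and 11.4 to 130 CPM in WT.

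Dnase1, a nuclease abundant in kidney, had 763, 896, 1740, 922 and 2010 CPM in cFGF23-Hyp, 464 to 619 CPM in Hyp, and 1720, 2020, 1710, 2190 and 1260 CPM in WT. All 5 cFGF23-Hyp libraries lay above all 5 Hyp libraries, and cFGF23-Hyp_3 and cFGF23-Hyp_5 reached the WT range. The share of all genes that separate from Hyp in this way was not counted. Against WT, its log2 fold change was -0.82 ± 0.21 (edgeR adjusted p = 0.0901, 13 libraries; DESeq2 adjusted p = 0.0078), and without cFGF23-Hyp_3 the adjusted p was 0.000417. With all libraries it was -0.49 ± 0.23 (adjusted p = 0.8694). Against Hyp it was 0.88 (adjusted p = 0.0844) in the 13-library fit.

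**Figure D4:**
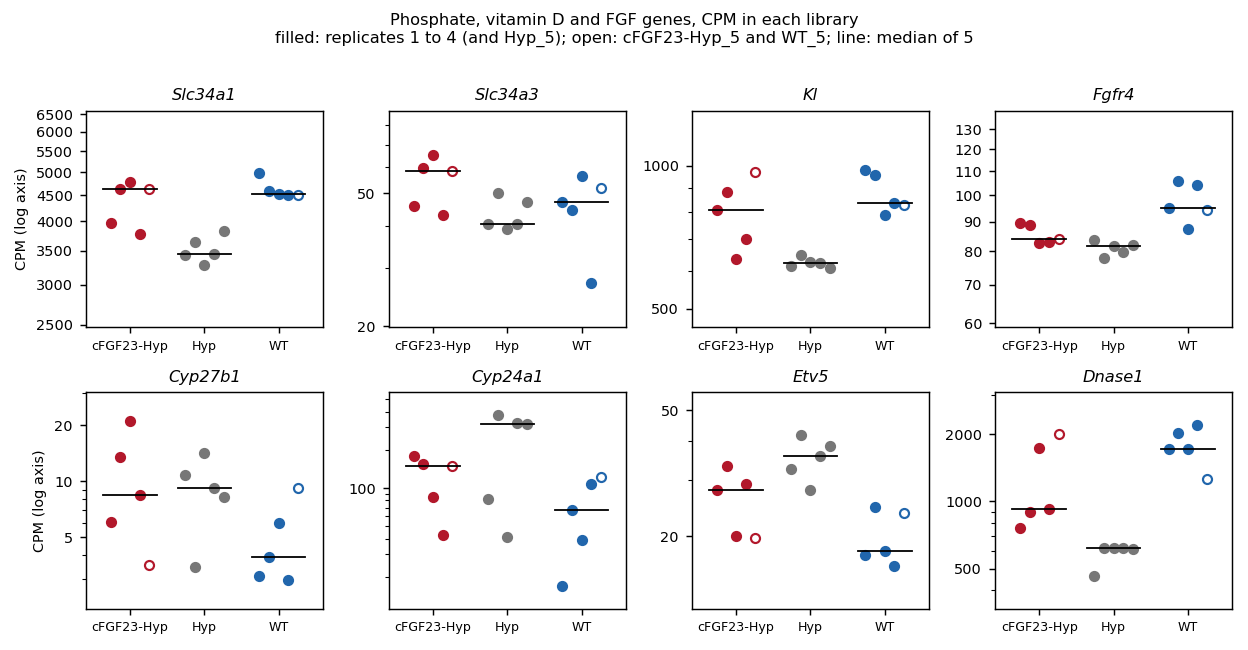
CPM on a log axis in each of 15 libraries for 8 genes, of phosphate, vitamin D and FGF signalling and Dnase1, with groups from left to right cFGF23-Hyp, Hyp and WT, open circles for cFGF23-Hyp_5 and WT_5, and a line at the median of 5. Slc34a1 runs from 3780 to 4770 CPM in cFGF23-Hyp, 3280 to 3830 in Hyp and 4510 to 4970 in WT, and the cFGF23-Hyp and WT circles overlap in each panel.

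The remaining inflammation, injury and matrix genes showed few calls against WT. Of 28 tested NF-kB and cytokine genes 1 rose (0.843% over all genes tested) and 0 fell, with a median of 0.113. The called one was the chemokine Cxcl16, with 40.7, 44, 66.8, 45.3 and 32.4 CPM in cFGF23-Hyp, 45 to 61.8 CPM in Hyp, and 30.9, 32, 34.1, 27.2 and 42.7 CPM in WT. Its log2 fold change was 0.66 ± 0.15 (edgeR adjusted p = 0.0452, 13 libraries), which held in 3 of 13 fits that left out 1 further library, those without Hyp_5, cFGF23-Hyp_1 or cFGF23-Hyp_3. With all libraries it was 0.46 ± 0.16. The adhesion molecule Vcam1 was at 0.48 ± 0.18 (adjusted p = 0.3734), and the injury markers Lcn2 and Havcr1 at 0.44 ± 0.27 and 0.51 ± 0.31 (adjusted p = 0.6779 and 0.6683). Of 22 tested injury markers and 41 matrix genes edgeR called 0, with medians of 0.141 and 0.138, and 3 and 4 were at an unadjusted p below 0.05. DESeq2 called 2 of the injury markers higher, Cp and Sox9. Col1a1, the main fibrillar collagen, had 13.4 to 37 CPM in cFGF23-Hyp and 14.8 to 25.3 CPM in WT, and Tgfb1 had 7.26 to 17.9 CPM in cFGF23-Hyp and 8.67 to 12.2 CPM in WT. The antibody genes Igha and Jchain were at 0.87 ± 0.45 and 0.63 ± 0.41 (adjusted p = 0.5797 and 0.6935). Igha had 24.6 to 152 CPM in cFGF23-Hyp, 106 to 283 CPM in Hyp and 29.1 to 86.4 CPM in WT.

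Heat shock proteins and chaperones were mostly negative in the 13-library fit, with 2 of 22 tested members positive, against 54.9% over all genes tested. Their median was -0.436, against 0.021 over all genes tested, and -0.26 with all libraries. In the 13-library fit edgeR called 0. At an unadjusted p below 0.05 there were 11, and DESeq2 called 2 lower, Hsp90aa1 and Hspa4l. Their summed level was 5450, 6070, 9140, 6600 and 8220 CPM in cFGF23-Hyp and 6240, 8540, 9360, 10800 and 6540 CPM in WT. The groups overlapped, and WT_3 and WT_4 were the highest WT libraries. Of 24 tested genes of the unfolded protein response 4 were positive, with a median of -0.185 and 0 called. Nuclear genes of oxidative phosphorylation had a median of -0.017 over 54 tested members and 0 called, and without cFGF23-Hyp_3 the median was -0.281. Their summed level was 16900, 17600, 28500, 18900 and 18800 CPM in cFGF23-Hyp and 20100, 21900, 20200, 21800 and 18300 CPM in WT, with cFGF23-Hyp_3 far above the rest. Segment and vessel markers had medians of 0.058 for the loop of Henle, 0.067 for podocytes, 0.085 for distal and principal cells, 0.126 for endothelium and 0.25 for intercalated cells (14 of 16 positive; 0.133 with all libraries), and edgeR called 0 in each in the 13-library fit. Umod, made by the loop of Henle, had 1930 to 3180 CPM in cFGF23-Hyp and 2600 to 3060 CPM in WT. Markers of kidney were present in every library, as the tissue label says.

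**Figure D5:**
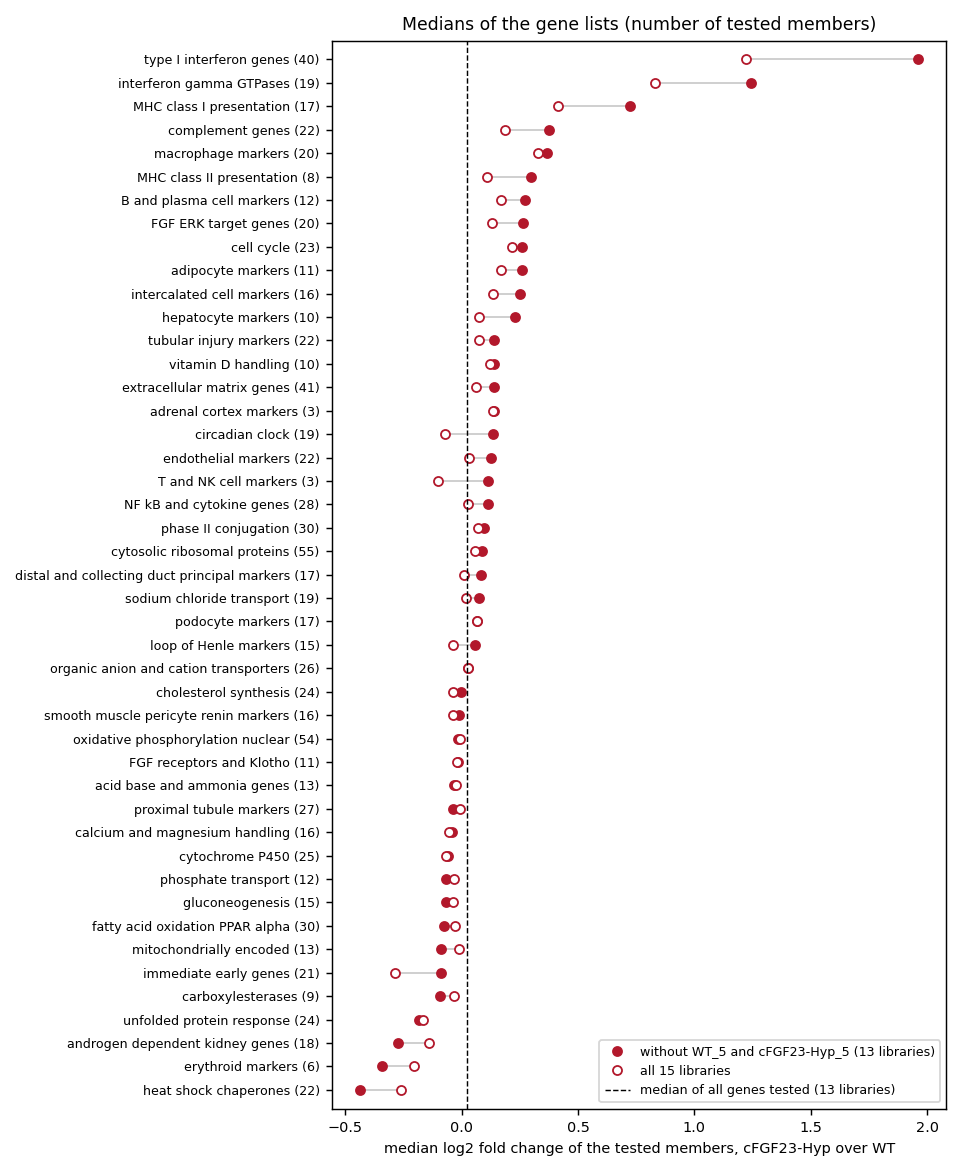
Median log2 fold change of cFGF23-Hyp over WT (horizontal) of the tested members of each list with at least 3 of them (rows, with their number), filled without WT_5 and cFGF23-Hyp_5 and open with all 15 libraries. Type I interferon genes (1.963 and 1.223), interferon-gamma GTPases (1.244 and 0.831) and class I presentation (0.722 and 0.416) lie farthest to the right of the lists drawn. Farthest to the left are heat shock chaperones without WT_5 and cFGF23-Hyp_5 (-0.436, and -0.26 with all libraries) and immediate early genes with all libraries (-0.287, and -0.089 without the pair).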

How the data were processed

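RNA of 15 whole kidneys was sequenced with the NEBNext Ultra kit, per the labels' protocols. Aligner, counting tool and strandedness are not stated in the labels or file headers, so reads of overlapping or antisense genes cannot be told apart. The submitters' processing notes name mm10, but 1.96% of 25727 genes start where GRCm38 has them, so no coordinate of the deposited tables is printed. Raw read counts deposited by the authors were used. The deposited normalized signal equalled these counts times a constant per library and served only as a check, and 20 deposited per-sample FPKM columns were not used.

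The table of Hyp against WT (28216 genes) and that of cFGF23-Hyp against Hyp (28110 genes) were joined on the 27122 genes in both. A further 299 unnamed entries (0.219% to 0.363% of a library's counts) were dropped, and 26823 genes remained. edgeR 4.0.16 (R 4.3.3, quasi-likelihood F test, TMM scaling, filterByExpr) was fitted with a mean per group to all 15 libraries (15789 genes) and without WT_5 and cFGF23-Hyp_5 (13 libraries, 15900 genes). Calls are at an adjusted p below 0.05 (Benjamini-Hochberg, over all genes tested). The standard error (SE) was taken as the absolute log2 fold change over the root of F. CPM uses the TMM-scaled library size. Errors over mice include counting error, and the design names 5 mice per group, 1 library each. The closest 2 libraries of a group had a chi-square of 8.231 per degree of freedom, so none repeats another.

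Named genes (67) were a fixed set, the 8 (at most) largest rises and falls of called protein-coding genes in either fit where mean log2 CPM was 1 or more, and up to 3 called members of each list with the smallest adjusted p. Some genes under this rule are not reported here. The 47 lists held 1009 entries, and 11 of these had no match in the tables, while 4 matched through a synonym. Members, lists and the libraries left out were chosen with earlier results of these data known. Alternatives were DESeq2 1.42.0, its size factors, limma-voom (limma 3.58.1), other filters, fits of 2 groups, a replicate block, WT_5 placed in Hyp, and each library left out in turn. Promoter windows come from RefSeq (GRCm38.p6).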

Additional observations from a re-analysis of the deposited data

Results flagged for a closer look

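In 133 groups of 5 libraries (the cFGF23-Hyp and the WT values of each reported gene that reached 1 CPM, of the number of detected genes and of the mitochondrial share), the highest or lowest library was set against the other 4 by Dixon's ratio at the 95% level. A library lay far from the others of its group in 31 of them (23.3%), where chance gives about 1 in 20. That rate does not apply as it stands, since genes are not independent and many were named because they were called without WT_5 and cFGF23-Hyp_5. WT_5 was that library in 21 groups, cFGF23-Hyp_5 in 7, cFGF23-Hyp_3 in 2 and WT_1 in 1.

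Among interferon-induced and antigen presentation genes, WT_5 stood above the other WT libraries for Irf7 (44.4 CPM), Ifit1 (8.67 CPM), Isg15 (6.77 CPM), Oas1a (11.3 CPM), Oasl1 (14.4 CPM), Oasl2 (22.8 CPM), Mx2 (9.81 CPM), Lgals3bp (232 CPM), Ifi44l (10.6 CPM), Irgm1 (81.9 CPM), Gbp3 (11.9 CPM), Gbp6 (3.36 CPM), H2-T23 (80.1 CPM), Tap1 (12.1 CPM) and C2 (14.4 CPM). It also stood above them for Ttr (463 CPM), Ces1g (9.59 CPM), Nat8f2 (53.9 CPM), Slc22a8 (378 CPM) and Slc13a1 (339 CPM), and below them for the calcium-binding protein Calb1 (273 CPM, the others at 396 to 442 CPM).

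cFGF23-Hyp_5 stood above the other cFGF23-Hyp libraries for Synpr (42 CPM), Anks1b (12.1 CPM), Hapln1 (9.81 CPM), Gm11100 (15 CPM), Ces2h (4.71 CPM) and Ugt2b37 (537 CPM), and below them for Nat8f2 (33.5 CPM). cFGF23-Hyp_3 stood below the others of its group for Irs2 (19.4 CPM) and the phosphate transporter Slc20a2 (46.2 CPM). WT_1 stood above the other WT libraries for Slc34a1 (4970 CPM, the others at 4510 to 4580 CPM). WT_5 is the library whose genotype label disagrees with its title. What sets these libraries apart was not tested.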

How the results depend on the processing

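With all 15 libraries, 0 genes were called by edgeR, limma-voom, other scaling, other filters, a fit of 2 groups and the replicate block. DESeq2 called 6 (4 higher, Tceal8, Spns3, Gm16146 and Etv1, and 2 lower, Mfsd2a and Irs2). Leaving out each library in turn gave 0 to 3 called and higher and 0 lower, the 3 (Tceal8, Rnase4 and Ces1g) without WT_5, and WT_5 placed in Hyp gave 1 (Rnase4, higher). Genes outside the naming rule were singled out here after their values were seen. Without WT_5 and cFGF23-Hyp_5 the counts were 177 called, 134 higher and 43 lower, and without cFGF23-Hyp_3 as well 583, 291 and 292. In the 13-library fit, DESeq2 called 355 (235 higher, 120 lower), limma-voom 129, a fit of 2 groups 71 (58 and 13) and the replicate block 105 (80 and 25), of which 97 were among the 177. Leaving out 1 further library gave 83 to 583 called, 69 to 291 higher and 14 to 292 lower, with the lowest without WT_2, 93 without WT_4, 106 without cFGF23-Hyp_2, 114 without WT_1 and the highest without cFGF23-Hyp_3. The 36 type I interferon genes called higher became 28 to 37 in these, 24 with 2 groups and 29 with the block. The share higher was 75.7% in the 13-library fit and 49.9% without cFGF23-Hyp_3. Same-numbered cFGF23-Hyp and WT libraries had correlations of deviations of -0.103 to 0.13, above 0.1 in 2 of 5 pairs, so numbers were not taken to pair mice. No called direction reversed, and 42 turns of sign within 1 SE of uncalled values were counted as no change. With 4 or 5 mice per group, small changes of low genes were not detectable.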

Other observations

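The following genes were singled out after their values were seen and are outside the rule for named genes. Ftcd, which takes part in histidine catabolism, was lower by 13-library edgeR (log2 fold change -1.02 ± 0.13, adjusted p = 0.00096), with 29.5, 27.7, 34.5, 22.1 and 58 CPM in cFGF23-Hyp, 15.7 to 22.1 CPM in Hyp, and 52.5, 62.5, 55.5, 59.4 and 37.1 CPM in WT. The prolactin receptor Prlr rose by 2.28 ± 0.49 (adjusted p = 0.0384), with 7.3, 29.9, 13.1, 22.3 and 2.47 CPM in cFGF23-Hyp, 6.07 to 37.8 CPM in Hyp, and 4.02, 3.72, 3.45, 3.79 and 9.32 CPM in WT. Fgf10, a growth factor of branching epithelia, rose by 1.03 ± 0.17 (adjusted p = 0.0072), with 3.81, 4.71, 5.64, 4.56 and 3.79 CPM in cFGF23-Hyp, 5.25 to 7.95 CPM in Hyp, and 2.44, 2.48, 2.04, 2.19 and 4.39 CPM in WT.

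Rnase4 and Ang, ribonucleases of overlapping genes whose reads may be divided between them, rose by 2.09 ± 0.28 and 2.29 ± 0.33 (edgeR adjusted p = 0.0011 and 0.0024). Rnase4 had 37.4, 79.3, 38.3, 58.6 and 34.8 CPM in cFGF23-Hyp, 44 to 68.8 CPM in Hyp, and 10.9, 8.86, 19.8, 10.5 and 48.8 CPM in WT. Here cFGF23-Hyp_5 lay above WT_1 to WT_4, unlike for most of the interferon genes. Tceal8 rose by 0.85 ± 0.10 (adjusted p = 0.00067), with 46.7, 42.4, 61.6, 55.6 and 38.4 CPM in cFGF23-Hyp, 49.6 to 54.8 CPM in Hyp, and 28.2, 28.3, 30.7, 27.4 and 40.4 CPM in WT. Mfsd2a, a transporter of lysophospholipids, had 53.1, 20.8, 17.6, 27.2 and 29.1 CPM in cFGF23-Hyp, 22.1 to 38.8 CPM in Hyp, and 61.2, 78.5, 49, 133 and 50.8 CPM in WT, with a log2 fold change of -1.43 ± 0.34 (adjusted p = 0.0663). Further interferon-induced genes outside the lists, Oas1g, Ifitm3 and Ly6e, rose by 4.93 ± 0.59, 1.26 ± 0.17 and 1.49 ± 0.29 (adjusted p = 0.00061, 0.0012 and 0.0215). With all 15 libraries, edgeR called none of these genes, and the log2 fold changes were -0.64 ± 0.21 for Ftcd, 1.63 ± 0.55 for Prlr, 0.73 ± 0.21 for Fgf10, 1.33 ± 0.39 for Rnase4, 1.52 ± 0.41 for Ang, 0.66 ± 0.13 for Tceal8, -1.33 ± 0.30 for Mfsd2a, 2.61 ± 0.87 for Oas1g, 0.77 ± 0.30 for Ifitm3 and 1.03 ± 0.35 for Ly6e.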
